A study of Mus musculus with 12 samples.

Results

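The data described here were the baseline transcriptome of wild-type mouse epiphyseal chondrocytes, the cartilage cells at the ends of growing long bones. The members were the 3 WT libraries of a series of 12 bulk RNA-seq libraries, chosen by their genotype label. No contrast between genotypes was tested. WT mice were 5-day-old females of the C57BL6 strain. The other 9 libraries came from female mice of the same age that lacked Phlpp1, Phlpp2 or both (Phlpp1-/-, Phlpp2-/- and Phlpp1/2-/-, 3 libraries each), and they served as a range beside which WT levels are set and to show how far a gene spread among replicates of another genotype. PHLPP1 and PHLPP2 are phosphatases that act on AKT and related kinases. All cells had been released with collagenase II, frozen, thawed and kept in serum-containing medium on plastic overnight before RNA was taken. The levels are therefore those of recently plated primary cells and not of intact cartilage. The labels did not say whether a library held cells of a single animal or of a pool.

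Chondrocytes make a matrix of type II collagen fibrils filled with aggrecan, a proteoglycan that carries sulfated sugar chains and holds water. SOX9, with SOX5 and SOX6, switches on the genes of this matrix. In a growing bone end, resting cells below the joint surface give rise to flat dividing columnar cells, which become prehypertrophic and then hypertrophic cells that make type X collagen. Indian hedgehog and parathyroid hormone-related protein set the pace of that sequence, and FGFR3 restrains it. Cells at the joint surface make lubricin, the product of Prg4.

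The WT libraries held 21706337, 27829144 and 26658108 counts on genes, and levels are given as CPM, counts scaled to a common library size. A single count was worth 0.0453, 0.0360 and 0.0382 CPM in WT 1, WT 2 and WT 3. Of 49315 genes, 12993 reached 1 CPM in all 3 libraries, and 11926 of those were protein-coding genes. Of all genes, 21980 had no count in any WT library. Means reached 10 CPM in 9273 genes, 100 CPM in 2117 genes and 1000 CPM in 89 genes. Phlpp1 stood at 43.8, 35.1 and 40.0 CPM and Phlpp2 at 28.1, 22.4 and 25.8 CPM in WT 1, WT 2 and WT 3. Phlpp1 was between 7.71 and 9.46 CPM in the 6 libraries labelled as lacking it, and Phlpp2 between 10.2 and 19.4 CPM in the 6 labelled as lacking Phlpp2.

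The cells carried the markers of their label. Col2a1, the chain of type II collagen, was the gene with the highest mean CPM, at 26071, 32451 and 40258 CPM in WT 1, WT 2 and WT 3. Acan, the core protein of aggrecan, had 3552, 3832 and 4924 CPM. Sox9 had 350, 387 and 407 CPM. WT 1 was the lowest and WT 3 the highest library for each of these. Col10a1, the collagen of hypertrophic cells, had 651, 715 and 788 CPM, and Prg4 had 109, 166 and 170 CPM. Thus markers of the matrix-making chondrocyte, of the hypertrophic cell and of the joint surface cell were all present in every library. Col2a1, Acan and Sox9 are not on the columnar list below, and Prg4 is also on the synovial list. In bulk RNA, fewer cells of a type and less RNA per cell cannot be told apart, here and in every result below.

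Genes of the matrix, of translation and of glycolysis held most of the leading places by CPM. The 2 leading genes, Col2a1 and Fn1, took 5.51% ± 0.866 of the counts (mean ± SD, n = 3 libraries, as for all values of this form). The 10 leading genes took 9.15% ± 1.09, and the 100 leading genes 22.8% ± 0.982. Fn1, which encodes fibronectin, a glycoprotein that links cells to matrix, had 20778, 20799 and 25610 CPM in WT 1, WT 2 and WT 3. Next came Eef1a1, a translation elongation factor, with 5883, 6680 and 6135 CPM, and Thbs1, the matricellular protein thrombospondin 1, with 4051, 4820 and 6033 CPM. Many of the 30 leading places among nuclear genes went to matrix genes: Col2a1, Fn1, Thbs1, Col11a1, Acan, Col6a3, Sparc, Col6a1, Col6a2 and Col11a2. Spp1, the phosphoprotein osteopontin, and Timp3, an inhibitor of metalloproteinases held in the matrix, were also among them. The other places held glycolytic enzymes (Pkm, Gapdh, Eno1, Ldha), genes of translation (Eef1a1, Eef2, Rplp0, Rpsa, Rpl4, Pabpc1), ferritins (Fth1, Ftl1), the cytoskeletal genes Vim and Actb, the chaperone Hsp90ab1, the imprinted neighbours Igf2 and H19, and the noncoding Gm42418. CPM is not divided by gene length, so long genes gain places in this order. By level per length, the matrix genes named first ranked lower among all genes. Col2a1 ranked 2, Fn1 7, Sparc 20, Thbs1 31, Col6a1 34 and Acan 54. Col11a1 ranked 110, Col6a3 118, Col6a2 143 and Col11a2 149. The 83 ribosomal protein genes took 5.85% ± 0.525 of the counts and the 35 mitochondrial genes 0.715% ± 0.0387.

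**Figure D1:**
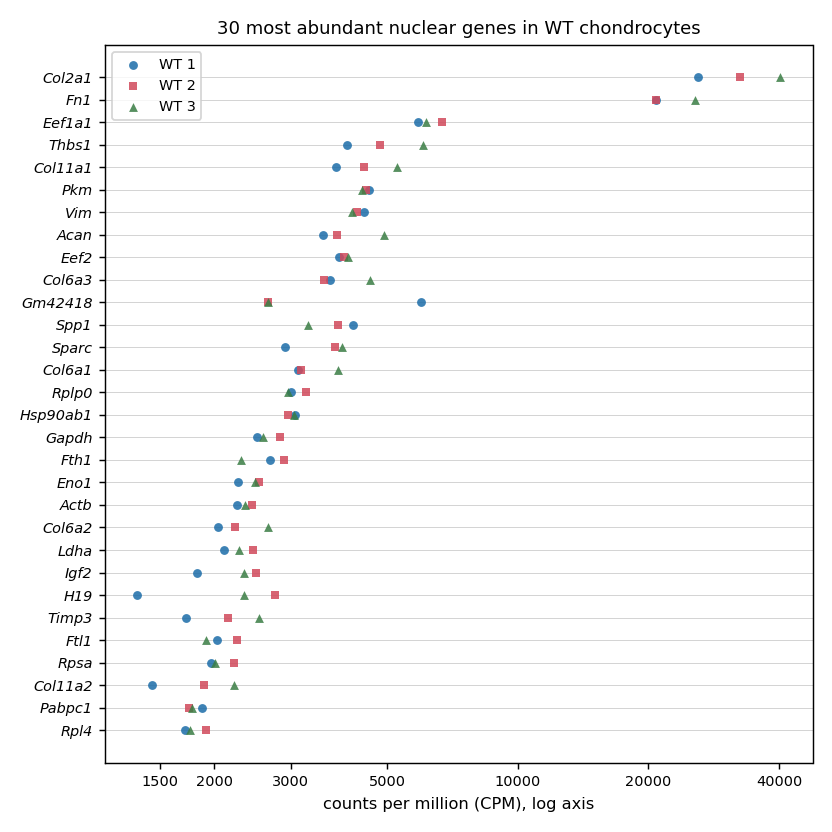
The 30 nuclear genes with the highest mean CPM, with each WT library on a log axis (circles WT 1, squares WT 2, triangles WT 3). CPM is not divided by gene length. Col2a1 and Fn1 lie well to the right of all others, Col2a1, Col11a1, Col11a2 and Acan run from WT 1 up to WT 3, and Gm42418 stands apart in WT 1 at 5988 CPM.

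Levels of different genes are compared below per length, as TPM, a scale of transcript shares computed from the counts and the union exon length of each gene. Of 423 pairs of neighbours in these lists, 261 kept their order in all 3 libraries, so a place just above another gene is firm only where that is said. Among the cartilage collagens, Col2a1 had 12134 ± 2708 TPM. Col11a1 and Col11a2, the type XI chains that join type II collagen in the fibril, had 1202 ± 205 and 917 ± 199.996 TPM. The type IX chains, which sit on the fibril surface, were at similar levels to each other: Col9a3 had 819.6 ± 146, Col9a1 718 ± 152 and Col9a2 714 ± 132 TPM. Neighbours among these 3 and Col10a1, at 781 ± 79.9 TPM, did not keep their order in all 3 libraries. Col27a1, a minor fibrillar collagen of cartilage, had 64.0 ± 16.6 TPM.

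Pericellular and fibrous collagens were also present. The type VI chains, which form the mesh around each chondrocyte, led the other collagens, with Col6a1 at 2629 ± 360.1, Col6a3 at 1124 ± 173 and Col6a2 at 945 ± 140.4 TPM. Col1a1 and Col1a2, the chains of type I collagen of bone and fibrous tissue, had 217 ± 55.6 and 109 ± 26.6 TPM. The level per length of Col2a1 was thus far above that of Col1a1 in every library, and Col1a1 had 356, 363 and 534 CPM in WT 1, WT 2 and WT 3.

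Acan, at 1872 ± 353 TPM, led the proteoglycan list, which ran over Hapln1, the link protein that ties aggrecan to hyaluronan (635 ± 46.9 TPM), and Ucma, a small secreted protein of the upper growth plate (626 ± 212 TPM). The order of Hapln1 and Ucma differed between libraries, since Ucma had 98.7 CPM in WT 1 and 192 and 198 CPM in WT 2 and WT 3. Has2 led the hyaluronan synthases at 42.5 ± 2.72 TPM. Bgn (503 ± 70.8 TPM), Fmod (287 ± 99.96 TPM) and Dcn (184 ± 17.7 TPM), which encode biglycan, fibromodulin and decorin, led the small leucine-rich proteoglycans that bind collagen fibrils. Aspn was at 0.992 ± 0.388 TPM and Kera at 0.154 ± 0.0493 TPM.

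Fn1 had 6532 ± 909 TPM, the highest of the glycoproteins, before Sparc at 3178 ± 489 and Thbs1 at 2787 ± 585 TPM, both matricellular proteins. Among glycoproteins typical of cartilage, Comp had 775 ± 222 TPM and Cnmd, which encodes chondromodulin, a growth plate protein that restrains vessel growth, 647 ± 166 TPM. Matn1 had 194 ± 55.4 and Matn3 141 ± 40.2 TPM, both matrilins of the cartilage network, while Matn4 had 10.0 ± 1.21 TPM. Snorc, a chondrocyte proteoglycan listed in the table under its older symbol 3110079O15Rik and found by its gene identifier, had 251 ± 51.0 TPM.

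Most genes that process and remodel this matrix were present. All 37 collagen and proteoglycan modifying enzymes reached 1 CPM in every library, led by P4hb, a subunit of prolyl 4-hydroxylase and a disulfide isomerase, at 1332 ± 94.9 TPM. The lysyl oxidases Loxl4, Loxl3 and Lox, which cross-link collagen, had 561 ± 99.5, 543 ± 82.8 and 483 ± 58.4 TPM. Papss2, which makes the sulfate donor for aggrecan's sugar chains, had 441 ± 59.4 TPM. Timp1, an inhibitor of metalloproteinases, was the highest of the proteases and inhibitors at 4518 ± 252 TPM, followed by the collagen chaperone Serpinh1 at 2349 ± 234 TPM and the protease Mmp3 at 1869 ± 455 TPM. Mmp13, the collagenase of hypertrophic cartilage, had 236 ± 22.6 TPM.

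The 60 genes of the 4 cartilage matrix lists together summed to 73105, 84754 and 102014 CPM in WT 1, WT 2 and WT 3, or 8.63% of the counts on average. WT 3 was thus 1.40 times WT 1, in replicates of a single genotype. Of the 56 with a mean of at least 1 CPM, 46 were lowest in WT 1 and 37 were highest in WT 3. Over the 13416 genes with such a mean, 31.3% were lowest in WT 1 and 31.4% were highest in WT 3. All 8 cartilage collagens were lowest in WT 1 and highest in WT 3. So were most of the modifying enzymes, of which 29 of 37 were lowest in WT 1 and 28 highest in WT 3. The list of aggregating proteoglycans, link proteins and hyaluronan genes was divided, with 5 of 12 genes lowest and 5 highest in WT 1. The KO libraries summed to between 62396 and 99330 CPM over the same 60 genes. No test was made of this order, since replicates of a group have none, and other scalings put 40 to 48 of the 56 lowest in WT 1.

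**Figure D2:**
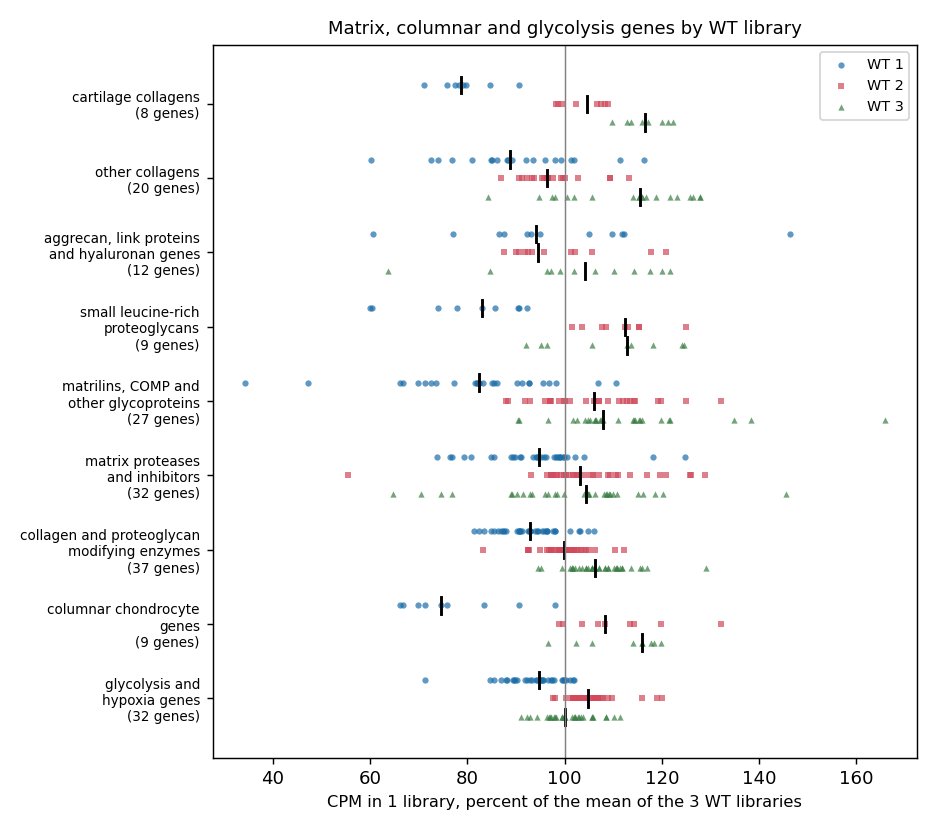
Each point is a gene with a mean of at least 1 CPM, plotted as its CPM in a library in percent of its mean over the 3 WT libraries, with a black bar at the list's median. The blue points (WT 1) lie below 100 percent for all 8 cartilage collagens and all 9 columnar genes, and the green points (WT 3) lie above it for the 8 cartilage collagens, while the glycolysis genes lie close together. Most of the columnar genes are also on the matrix lists.

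Because glycine recurs along the whole collagen helix, the coding sequences of the RNA were also read. Each of 22296 nuclear genes with an annotated coding sequence was weighted by its level per length. Glycine codons then made up 8.05%, 8.31% and 8.55% of all codons in WT 1, WT 2 and WT 3, against 6.38% over the same genes with equal weight. Col2a1 alone supplied 13.9% ± 2.21 of all glycine codons in the weighted RNA, Fn1 3.78% ± 0.275, Col11a1 1.45% ± 0.151 and Acan 1.37% ± 0.162. The 44 collagen genes held 22.0% ± 3.01 of the glycine codons and 7.89% of all codons. Without them the glycine share was 7.02%. Proline codons made up 6.62% ± 0.146, against 6.08% with equal weight. Codon shares describe the RNA pool and not the protein made from it.

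The transcription factors included the SOX trio, of which only Sox9 stood out among SOX genes. Several stress and growth control factors lay above Sox9 per length. Sox9 had 314 ± 24.9 TPM, above Sox6 at 26.4 ± 2.23, Sox12 at 26.1 ± 3.39 and Sox5 at 24.2 ± 1.18 TPM. The last 3 did not keep their order in all libraries. Of 20 SOX genes, 8 reached 1 CPM in every library and 3 had no count in any. Atf4, the factor of amino acid and folding stress that also serves collagen synthesis, had 869.8 ± 42.5 TPM, its relative Atf5 531 ± 33.6, and Hif1a, the hypoxia factor that growth plate cells need to survive, 230.3 ± 0.540 TPM. Ybx1, an RNA- and DNA-binding protein, had 1579 ± 30.4 TPM, and the BMP targets Id1 and Id3, which block helix-loop-helix factors, had 963 ± 51.2 and 769 ± 31.2 TPM. Ctnnb1, the gene of beta-catenin, had 816 ± 31.8 TPM.

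The factors of hypertrophy were present at lower levels. Runx2, which drives hypertrophy and bone formation, had 43.9, 46.7 and 51.5 CPM in WT 1, WT 2 and WT 3, and Runx3 33.9, 32.0 and 34.4 CPM. Their levels per length were 18.3 ± 1.64 and 22.7 ± 1.36 TPM. With the length of a single transcript in place of the union length, Runx2 came to 58.5 TPM, so the order of these factors depends on the gene model. Sp7, a factor of osteoblasts and prehypertrophic cells, had 20.8 ± 2.27 TPM and Mef2c 8.55 ± 0.747 TPM. Shox2 and Nkx3-2, factors of limb and growth plate chondrocytes, had 64.2 ± 6.10 and 26.6 ± 7.14 TPM.

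Genes of limb position were present from both limb types. Hoxa10 (97.9 ± 4.85 TPM), Hoxc10 (96.9 ± 7.85 TPM) and Hoxa11 (77.1 ± 5.77 TPM) led the 39 HOX genes, of which 20 reached 1 CPM in every library. Pitx1, a factor of the hindlimb, had 178, 163 and 166 CPM in WT 1, WT 2 and WT 3, and Tbx4, which acts with it, 28.4, 28.3 and 29.7 CPM. Tbx5, the forelimb factor, had 4.98, 4.79 and 3.59 CPM. These values were steady among libraries, whereas Hoxd13, a gene of the hand and foot, had 0.905, 1.87 and 7.23 CPM. WT 3 lay above the KO libraries for Hoxd13, which reached 4.25 CPM at most. The median biological CV of the HOX genes, the spread beyond counting noise divided by the mean, was 0.0404, beside 0.0491 over all 13416 genes.

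**Figure D3:**
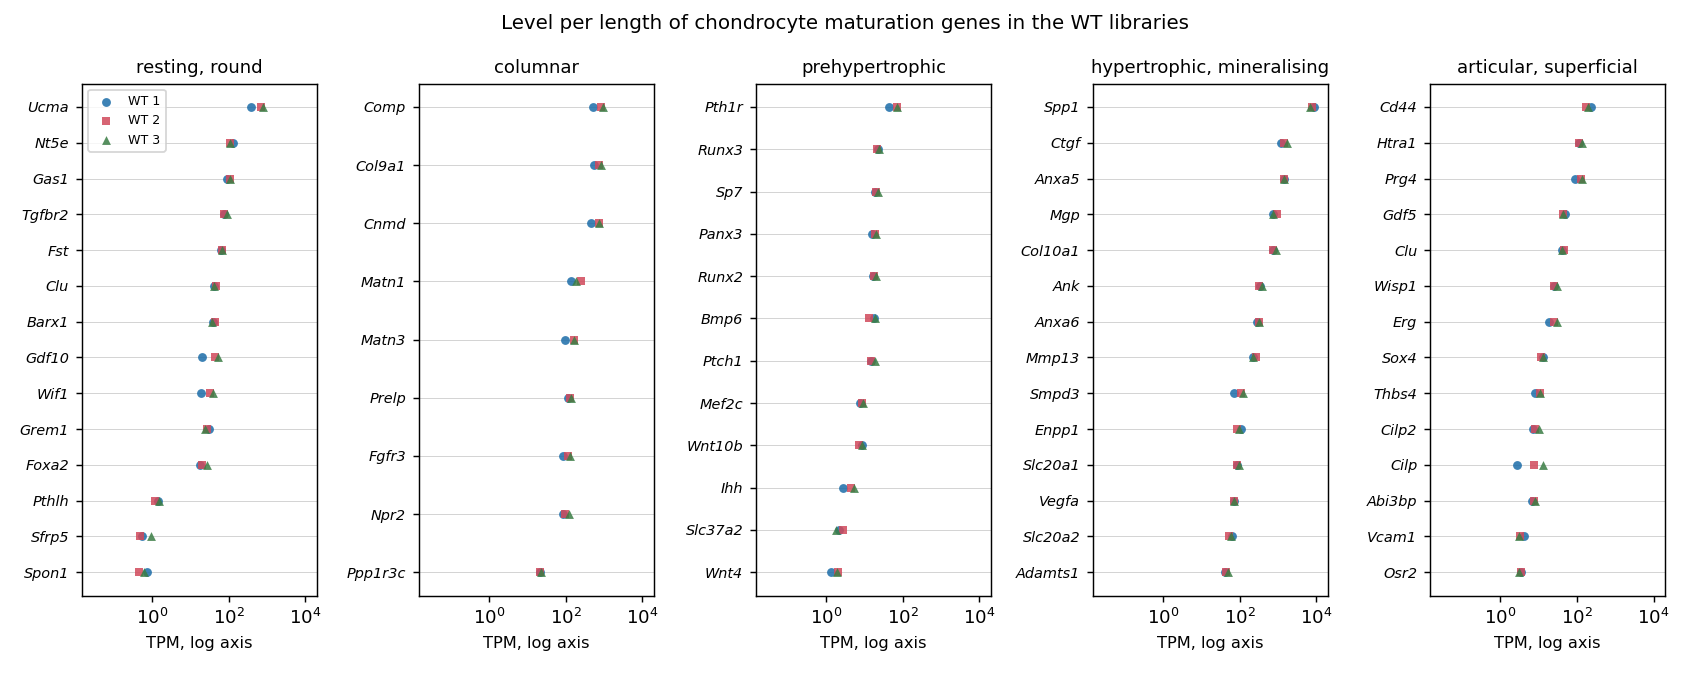
Level per length (TPM, log axis) of the genes of 5 maturation and zone lists in each WT library, the highest 14 of each list at most. The columnar genes lie between about the level of Ppp1r3c and that of Comp, Spp1 leads the hypertrophic genes, and Ihh, Pthlh and Sfrp5 sit near the low end.

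Genes of every maturation list were present in the same libraries, with leading columnar and hypertrophic genes higher than the signals between zones. The 12 prehypertrophic genes summed to 201 ± 24.5 TPM and the 24 hypertrophic and mineralising genes to 13716 ± 479 TPM. Comp, Col9a1 and Cnmd led the 9 columnar genes, all of which were lowest in WT 1 and reached 1 CPM in every library. Over all 13416 genes, 31.3% were lowest in WT 1. Comp, Col9a1, Cnmd, Matn1, Matn3 and Prelp were also on the cartilage matrix lists, so most of this order repeats the one given there. Their sum was 2101, 3173 and 3313 CPM in WT 1, WT 2 and WT 3. Spp1, the gene of osteopontin, a phosphoprotein of mineralising tissue, had 7774 ± 905 TPM, the most of the 24 hypertrophic and mineralising genes, of which 21 reached 1 CPM in every library. It ran the other way among libraries from the matrix genes, with 4163, 3854 and 3279 CPM. Col10a1, at 781 ± 79.9 TPM, was accompanied by Anxa5 at 1444 ± 21.3, Ank at 342 ± 26.5 and Mmp13 at 236 ± 22.6 TPM, genes of matrix vesicles, pyrophosphate export and collagen breakdown. Alpl, the phosphatase of mineralisation, had 13.2, 16.4 and 16.9 CPM. Ibsp, bone sialoprotein, had 3.35, 5.73 and 8.22 CPM.

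The osteoblast and osteocyte list summed to 720, 783 and 1089 CPM in WT 1, WT 2 and WT 3, mostly from Col1a1 and Col1a2, and 7 of its 13 genes reached 1 CPM in every library. Phex, an osteocyte gene of phosphate balance, had 2.99, 2.02 and 1.45 CPM. Other genes of mature bone cells were near the limit of detection. Bglap, osteocalcin, had 0.136, 0.216 and 0.229 CPM, Dmp1 0.0905, 0.288 and 0.229 CPM, and Sost 0.181, 0.180 and 0.115 CPM in WT 1, WT 2 and WT 3. These are a handful of counts each, near the limit of 3 counts, which stood at 0.136, 0.108 and 0.115 CPM. The signals of the growth plate loop were low too. Ihh, Indian hedgehog, had 2.44, 4.18 and 4.74 CPM, and Pthlh, which encodes parathyroid hormone-related protein, 0.679, 0.577 and 0.726 CPM. The list of articular and superficial zone genes was led by Cd44, the hyaluronan receptor, at 202 ± 25.4 TPM, Htra1 at 122 ± 10.98, Prg4 at 118 ± 26.4 and Gdf5, a joint factor, at 45.4 ± 2.89 TPM.

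All 30 S phase and mitosis genes reached 1 CPM in every library. Pcna, the DNA polymerase clamp, had 319, 306 and 280 CPM, Top2a 218, 212 and 179 CPM, and Mki67 133, 104 and 102 CPM in WT 1, WT 2 and WT 3. WT 3 was the highest library for 1 of the 30 genes, beside 31.4% of all 13416 genes. Genes of spread fibroblast-like cells were also high, with Vim at 3070.3 ± 121 TPM, Cyr61 at 2331 ± 307, S100a6 at 2158 ± 187 and Ctgf at 1449.8 ± 262 TPM. Others of that list were low, among them Tagln at 22.7 ± 4.24 and Postn at 2.94 ± 0.121 TPM. All 32 glycolysis and hypoxia genes reached 1 CPM, led by Pkm at 3041 ± 81.6, Ldha at 2340.4 ± 141 and Gapdh at 2177 ± 90.1 TPM. Ldha and Gapdh change places with the length of a single transcript. Among the glycolysis genes, 25 of 32 were lowest in WT 1 and 22 highest in WT 2, where 32.8% of all 13416 genes were highest, but their median biological CV was only 0.0535.

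All 32 genes of the stress and dissociation list reached 1 CPM as well. The endoplasmic reticulum chaperone Hspa5 had 1377 ± 99.96 TPM, the metallothioneins Mt2 and Mt1 1208 ± 266 and 749 ± 132 TPM, the cell cycle inhibitor Cdkn1a 689 ± 21.8 TPM and the heme oxygenase Hmox1 626 ± 33.9 TPM. The immediate early gene Fos was low beside these, at 19.7 ± 2.16 TPM, and Atf3 had 13.5 ± 0.957 TPM. Ptgs2, the inducible cyclooxygenase, had 386, 263 and 287 CPM in WT 1, WT 2 and WT 3, and Ccl2, a chemokine for monocytes, 67.4, 59.1 and 41.1 CPM. Both were highest in WT 1, as were 12 of the 32 genes of this list, beside 13 highest in WT 2. Over all 13416 genes, 35.8% were highest in WT 1 and 32.8% in WT 2, so these counts do not set the list apart.

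Among receptors, adhesion receptors and cytokine receptors stood highest per length. Tnfrsf12a, the receptor of TWEAK, had 781 ± 16.9 TPM and Itgb1, the common beta chain of collagen- and fibronectin-binding integrins, 692 ± 32.6 TPM. Its partners Itga5, for fibronectin, and Itga10, for collagen in cartilage, had 135 ± 9.72 and 38.9 ± 5.69 TPM. Epha2 led the other receptor tyrosine kinases at 329 ± 47.8 TPM, before Axl at 171 ± 17.5 and the collagen receptor Ddr2 at 118 ± 9.48 TPM. Trpv4 and Piezo1, ion channels through which chondrocytes sense load, had 215 ± 20.9 and 197 ± 18.9 TPM.

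The receptors of the growth plate pathways were present even where their ligands were low. Fgfr1, Fgfr3, Fgfr2 and Fgfr4 had 143 ± 10.2, 112 ± 25.4, 47.1 ± 7.04 and 7.38 ± 2.16 TPM, an order that held in every library with either length. Fgfrl1, a member without a kinase domain, had 231 ± 32.7 TPM, but its place above Fgfr1 did not hold in every library with the other length. Fgfr3 had 175, 251 and 278 CPM in WT 1, WT 2 and WT 3, while Fgf18, its main ligand in the growth plate, had 1.18, 0.901 and 1.22 CPM. Pth1r, the receptor of the protein encoded by Pthlh, had 38.3, 62.4 and 61.2 CPM, and the Hedgehog receptor gene Ptch1 had 61.7, 64.2 and 77.4 CPM. Npr2, the receptor of C-type natriuretic peptide, which promotes bone growth, had 103 ± 18.5 TPM. Tgfbr2 had the highest mean of the TGF-beta and BMP receptors, 80.4 ± 9.47 TPM, but lay above Tgfbr3 in only 2 of 3 libraries. Ryk led the WNT receptors at 140.3 ± 4.50 TPM, Igf2r the IGF receptors at 194 ± 23.3 TPM and Rarg, a retinoic acid receptor of cartilage, the nuclear receptors at 176 ± 15.2 TPM.

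Of 78 growth factors and secreted antagonists, 64 reached 1 CPM in every library. The matricellular pair Cyr61 and Ctgf came first, followed by Igf2, the fetal insulin-like growth factor, at 1318 ± 195 TPM. Igfbp7, Fstl1, Igfbp4 and Csf1 had 371 ± 34.2, 309.5 ± 17.7, 303 ± 40.5 and 262 ± 15.01 TPM. Igf1 was low, at 1.97 ± 0.244 TPM. H19, the noncoding neighbour of Igf2 on chromosome 7, had 1330, 2761 and 2340 CPM in WT 1, WT 2 and WT 3, and Igf2 had 1820, 2498 and 2336 CPM. Both were lowest in WT 1 and highest in WT 2, with a ratio of highest to lowest of 2.08 for H19 and 1.37 for Igf2.

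Wwp2 and Col27a1 host the genes of miR-140 and miR-455, microRNAs known from cartilage. The mature forms at hand are shown because the hosts were well expressed while the hairpins were not counted. For miR-140 only the 3p form was at hand. Capitals mark the seed, bases 2 to 8, by which a microRNA finds its targets, and no pair of the 3 shares a seed. The sequences are those of RefSeq on GRCm38.p6, from the plus strand of chromosome 4 for miR-455 and chromosome 8 for miR-140.
mmu-miR-140-3p: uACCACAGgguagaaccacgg
mmu-miR-455-5p: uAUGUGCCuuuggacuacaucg
mmu-miR-455-3p: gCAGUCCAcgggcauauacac
Wwp2, a ubiquitin ligase gene, had 294, 378 and 403 CPM and Col27a1 174, 263 and 297 CPM in WT 1, WT 2 and WT 3. Both were lowest in WT 1 and highest in WT 3. Col27a1 is itself on the cartilage collagen list, so its order repeats the one given there. The hairpins Mir140 and Mir455 had 0 counts in all 3 libraries, which allows up to 0.136, 0.108 and 0.115 CPM. Libraries of this kind are built from longer RNA fragments, so the level of the mature microRNAs was not measured.

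Markers of red blood cells, lymphocytes and granulocytes were at or near 0, and those of macrophages and endothelial cells were low. The 9 erythroid genes in the table summed to between 0.344 and 0.396 CPM, and all 4 globins among them had no count. The 12 lymphocyte genes summed to between 0.497 and 0.588 CPM, and the 12 neutrophil and mast cell genes to between 0.288 and 1.18 CPM, with no gene of either list at 1 CPM. The macrophage list summed to 67.0, 65.9 and 61.8 CPM in WT 1, WT 2 and WT 3. It was carried by Cd14, Lyz2 and Cd68, and 7 of its 15 genes reached 1 CPM in every library. The defining gene Csf1r had 1.54, 2.45 and 1.53 CPM and Adgre1 0.588, 0.649 and 0.650 CPM, and C1qa, C1qb and C1qc each stayed under 0.5 CPM. The endothelial list summed to between 33.1 and 40.8 CPM, of which Erg, also a factor of articular cartilage, made up 19.2, 26.6 and 30.05 CPM, and 4 of its 12 genes reached 1 CPM in every library. The defining genes Pecam1, Cdh5 and Kdr were each between 0.688 and 2.74 CPM. The smooth muscle and pericyte list was higher, at 572, 645 and 695 CPM in WT 1, WT 2 and WT 3. Acta2 and Cspg4 led it per length, and 7 of its 10 genes reached 1 CPM in every library. Which cells this sum came from was not tested.

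Several other lists were carried by a few genes, among them Ctsk, Fmod and Prg4, which were also on the matrix or zone lists above. The osteoclast list, at 121 to 144 CPM, was mostly Ctsk, cathepsin K, at 98.5, 119 and 108 CPM, while Acp5, the classic osteoclast phosphatase, had 1.86, 3.89 and 2.37 CPM. The neural list, at 70.6 to 94.2 CPM, was mostly S100b, known from chondrocytes, with Sox10 under 0.5 CPM. The keratinocyte list, at 101 to 121 CPM, was led by Perp and Krt18, with Krt5 at 0.543, 0.360 and 0.765 CPM. The tendon list, at 269, 429 and 462 CPM in WT 1, WT 2 and WT 3, was mostly Fmod. The tendon factor Scx came next per length in every library, while Tnmd, another tendon gene, had 0.453, 0.973 and 0.459 CPM. Synovial and connective tissue genes summed to 770, 916 and 833 CPM and were led by Dcn, Pdpn, Lum and Prg4. Pdgfra, Ly6a, Cd34 and Cd55 came next per length, above Thy1 at 2.22, 2.52 and 2.22 CPM. Genes that reached 1 CPM in every library were 4 of 10 osteoclast, 3 of 12 neural, 9 of 15 keratinocyte, 5 of 8 tendon and 9 of 14 synovial genes. How much of these sums came from other cells was not tested.

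**Figure D4:**
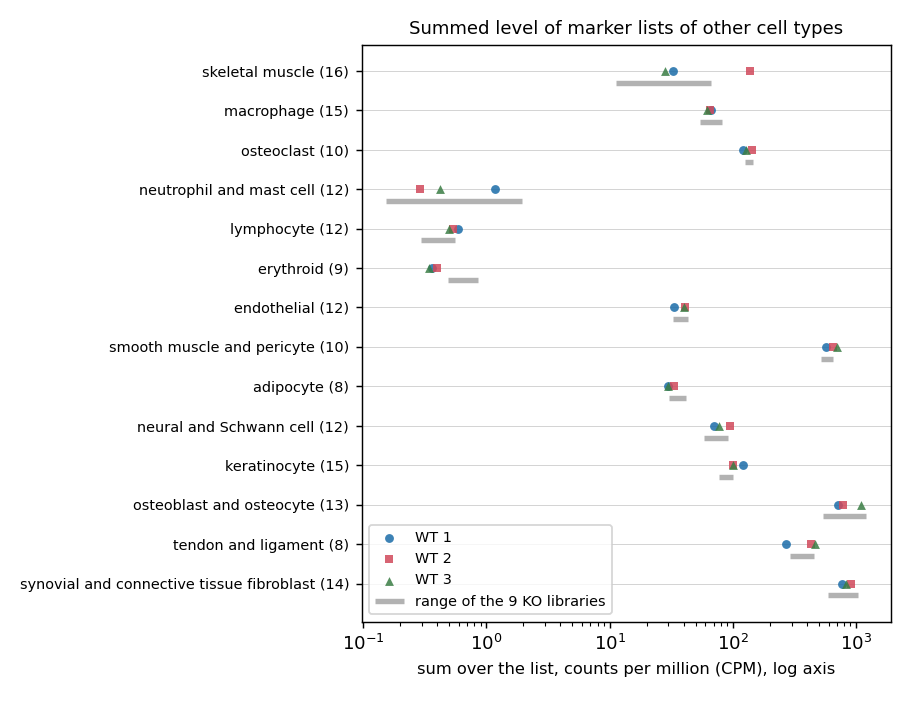
Summed CPM of each marker list of another cell type (number of its genes in the table in brackets) in the 3 WT libraries, on a log axis, with the range of the 9 KO libraries as a grey bar. Skeletal muscle has WT 2 far to one side at 138 CPM, and the neutrophil and mast cell list, near the limit of detection, has WT 1 apart at 1.18 CPM.

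Skeletal muscle genes were present mainly in a single library. The 16 muscle genes summed to 32.6, 138 and 28.3 CPM in WT 1, WT 2 and WT 3, with a range of 11.2 to 66.1 CPM in the KO libraries. All 11 with a mean of at least 1 CPM were highest in WT 2, and 10 of them differed at least 2-fold between the highest and lowest library. Over all 13416 genes, 1.57% differed that much. WT 2 is part of the mean used as a filter, and Mymk passed it only through WT 2. In all, 8 of the 16 genes reached 1 CPM in every library. Actc1, cardiac alpha-actin, which young skeletal muscle also makes, had 6.34, 36.6 and 5.73 CPM. Of the factors that turn precursors into muscle, Myog had 6.16, 30.7 and 5.47 CPM and Myod1 3.80, 13.9 and 2.79 CPM. Acta1, skeletal alpha-actin, had 3.62, 17.5 and 3.33 CPM. WT 1 and WT 3 were close to each other for these genes, and WT 2 lay above every KO library for Actc1, Myog, Acta1, Myod1 and Des. Mymk, the gene of the fusion protein myomaker, had 0.951, 4.07 and 0.382 CPM. Ttn, the giant sarcomere protein, was the one of the 11 that stayed under 2-fold, at 2.04, 3.28 and 1.64 CPM. The part of muscle cells in other differences of WT 2 was not tested.

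The promoters of the 2 muscle actins are shown since both genes had a level in WT 2 unlike that in the other libraries. They are 300 bases from RefSeq on GRCm38.p6, 250 before and 50 from the annotated start, given 5′ to 3′ along the gene, with 2 motifs in capitals, searched on both strands. The E-box CAGCTG is the kind of site that MYOD1 binds, and the letters TATAAA mark a core promoter element. Actc1 lies at chr2:114052826-114053125 and Acta1 at chr8:123894726-123895025, both on the minus strand.
Actc1: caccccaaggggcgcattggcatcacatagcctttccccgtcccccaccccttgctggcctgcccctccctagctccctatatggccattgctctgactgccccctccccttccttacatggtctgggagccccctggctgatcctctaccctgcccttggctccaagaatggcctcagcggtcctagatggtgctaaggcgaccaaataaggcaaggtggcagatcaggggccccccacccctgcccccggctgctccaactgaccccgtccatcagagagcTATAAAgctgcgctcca
Acta1: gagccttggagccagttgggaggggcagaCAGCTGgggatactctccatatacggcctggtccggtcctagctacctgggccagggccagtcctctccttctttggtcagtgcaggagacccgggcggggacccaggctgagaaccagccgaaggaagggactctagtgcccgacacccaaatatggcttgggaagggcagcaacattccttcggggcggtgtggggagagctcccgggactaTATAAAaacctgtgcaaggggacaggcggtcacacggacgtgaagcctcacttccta
Acta1 held 1 match to each motif and Actc1 a TATA match only. The E-box was found in 4 and the TATA box in 5 of 12 promoters of muscle list genes in the RefSeq table, beside 16.3% and 13.6% of all 32851 promoters. A match describes these letters and is not evidence of a bound site.

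Most genes lay close together among the WT libraries. The median biological CV over the 13416 genes was 0.0491, with quartiles of 0 and 0.0940. It was 0.0534, 0.0664 and 0.0553 over the same genes among replicates of Phlpp1-/-, Phlpp2-/- and Phlpp1/2-/-. In all, 211 genes reached a 2-fold ratio between the highest and lowest WT library, of which 39 had a mean of at least 5 CPM. Below that mean, counting noise takes a larger part of the ratio. In 3387 genes the spread was no larger than counting noise.

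**Figure D5:**
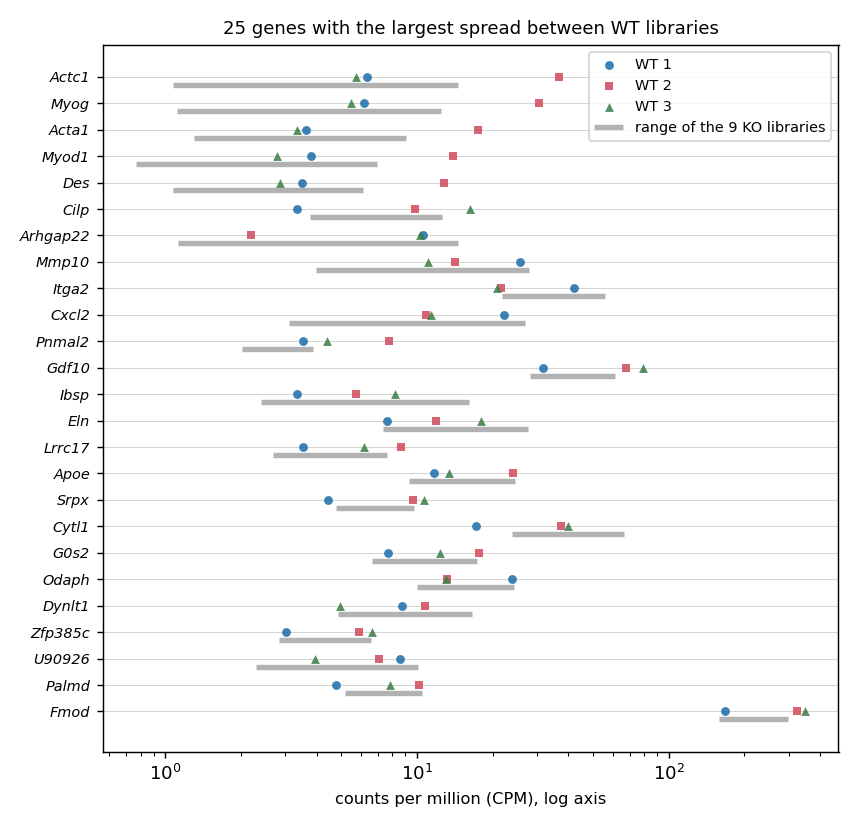
The 25 genes with the largest biological CV among those with a mean of at least 5 CPM, with the CPM of each WT library on a log axis and the range of the 9 KO libraries as a grey bar. The 5 muscle genes at the top have WT 2 far to the right of WT 1, WT 3 and the bar, while most others lie within or near the range of the KO libraries.

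The 25 genes that varied most are described here by library. They were chosen for this spread, so their ratios are a description. Of the 25, 11 were highest in WT 2, 8 in WT 3 and 6 in WT 1, and 13 were lowest in WT 1. Over all 13416 genes with a mean of at least 1 CPM, 32.8%, 31.4% and 35.8% were highest in WT 2, WT 3 and WT 1. Of those, 31.3% were lowest in WT 1. The 5 muscle genes Actc1, Myog, Acta1, Myod1 and Des, all highest in WT 2, came first, with biological CVs between 0.871 and 1.09. Acta1, Myod1 and Des passed the mean of 5 CPM through WT 2 and were under it in WT 1 and WT 3. Several matrix and joint genes among the 25 were lowest in WT 1. Cilp, a cartilage intermediate layer protein, had 3.35, 9.80 and 16.2 CPM in WT 1, WT 2 and WT 3. Gdf10, a BMP relative, had 31.6, 67.9 and 79.1 CPM, and Cytl1, a secreted protein of chondrocytes, 17.2, 37.3 and 40.0 CPM. Fmod, the last of the 25, had 168, 323 and 348 CPM. Eln, elastin, and Ibsp showed the same order, with Eln at 7.60, 11.96 and 17.9 CPM.

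Arhgap22, a GTPase-activating protein, had its low value in WT 2, at 10.5, 2.198 and 10.3 CPM, and the KO libraries ran from 1.12 to 14.6 CPM. Apoe, the lipid carrier, had 11.7, 24 and 13.5 CPM, and G0s2, an inhibitor of fat breakdown, 7.69, 17.6 and 12.3 CPM, both highest in WT 2. Dynlt1 belongs to a family of near-identical copies, so its 8.74, 10.7 and 4.93 CPM are uncertain. Past the last gene, Col25a1, H19 and Cxcl3 had CVs of 0.345, 0.343 and 0.342, beside 0.350 for Fmod.

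Of the 6 variable genes that were highest in WT 1, some act in inflammation or matrix breakdown, but the list of matrix proteases and inhibitors had 2 genes highest in WT 1 and 15 in each other library. Mmp10, the metalloproteinase stromelysin 2, had 25.6, 14.1 and 11.1 CPM, and Itga2, a collagen-binding integrin chain, 42.1, 21.5 and 20.9 CPM in WT 1, WT 2 and WT 3. Cxcl2, a chemokine for neutrophils, had 22.1, 10.9 and 11.4 CPM. Its neighbours on chromosome 5, which lie between 90759360 and 90905938 of mm10, followed, with Cxcl5 at 235, 166 and 129 CPM, Cxcl3 at 33.8, 22.6 and 17.2 CPM, Cxcl1 at 150, 118 and 110 CPM and Ppbp at 16.9, 10.3 and 9.40 CPM. WT 1 was the highest library for these 5, as it was for 35.8% of all 13416 genes, and Cxcl2 had been picked for its spread. The KO libraries covered all values of the 5, as Cxcl5 ran from 30.8 to 367 CPM. Pf4, in the same cluster, had 0.815, 1.66 and 0.612 CPM. These neighbours were looked up after the values of Cxcl2 had been seen. The neutrophil genes S100a8 and S100a9 stood at 0.362 CPM or less in WT 1.

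The promoters of Cxcl2 and Cxcl3 are shown because both genes were highest in WT 1 and both promoters held the same number of kappaB matches. They lie at chr5:90903649-90903948 and chr5:90785851-90786150 on the plus strand, with the same source and length as the actin promoters. Capitals mark matches on either strand to a form of the kappaB site bound by NF-kB, read as GGG, any 3 bases and then TTCC, and to TATAAA.
Cxcl2: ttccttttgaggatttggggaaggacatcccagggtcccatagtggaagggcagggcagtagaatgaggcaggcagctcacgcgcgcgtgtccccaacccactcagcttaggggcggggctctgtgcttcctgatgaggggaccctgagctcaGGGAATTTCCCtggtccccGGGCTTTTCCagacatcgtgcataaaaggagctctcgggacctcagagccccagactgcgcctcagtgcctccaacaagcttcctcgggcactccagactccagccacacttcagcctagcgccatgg
Cxcl3: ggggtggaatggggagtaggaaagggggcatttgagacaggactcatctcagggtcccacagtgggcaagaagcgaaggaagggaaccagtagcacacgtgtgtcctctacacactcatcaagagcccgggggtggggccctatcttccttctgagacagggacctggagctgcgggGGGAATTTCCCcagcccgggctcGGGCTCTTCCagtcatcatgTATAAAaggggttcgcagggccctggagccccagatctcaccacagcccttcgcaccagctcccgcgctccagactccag
Each promoter had 3 kappaB matches, of which 2 overlap on opposite strands within GGGAATTTCCC. Cxcl3 also had 1 TATA match and Cxcl2 had none. The kappaB motif was found in 3 of 5 promoters of this cluster in the RefSeq table and in 5.56% of all 32851 promoters. The promoters shown were picked for these matches, and a match is not evidence of a bound site.

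A further difference of WT 1 lay in a few genes known to collect reads of ribosomal RNA, which were picked after their values were seen. Gm42418, a noncoding gene on chromosome 17 within a ribosomal DNA-like sequence, had 5988, 2660 and 2658 CPM in WT 1, WT 2 and WT 3, and 2862 CPM at most in the KO libraries. Gm23935 (555, 328 and 315 CPM), Lars2 (393, 234 and 239 CPM) and Gm24270 (82.1, 39.9 and 42.6 CPM) were also highest in WT 1 and lay above all 9 KO libraries. Gm26917, next to Gm42418, was level at 259, 254 and 252 CPM. WT 1, the library of fewest counts, was thus the one with the lowest matrix sum and the most counts in these genes, and the part of this in the matrix values was not tested.

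Many of the genes that varied in WT also varied within the other genotypes, whose libraries are separate. Among all 10625 genes with a WT mean of at least 5 CPM, ranked by biological CV within each genotype, the 25 genes had a median percentile of 99.0 in Phlpp1-/-, 98.4 in Phlpp2-/- and 99.5 in Phlpp1/2-/-. Of the 25, 22, 20 and 22 lay in the top 10 percent of the 3 genotypes in that order. Their median CVs were 0.344, 0.334 and 0.383, beside 0.0508, 0.0633 and 0.0527 over all 10625 genes. Of the 25, 10 had a mean under 5 CPM in some other genotype, the 5 muscle genes, Arhgap22 and Pnmal2 among them. The 15 others, ranked among the 10385 genes with a mean of at least 5 CPM in every genotype, had median percentiles of 97.0 in Phlpp1-/-, 98.0 in Phlpp2-/- and 99.6 in Phlpp1/2-/-, and 12, 12 and 14 of them lay in the top 10 percent. Actc1 had 1.82, 10.9 and 14.5 CPM in the Phlpp1-/- libraries, so muscle genes also differed among the libraries of another genotype. Cilp, with a CV of 0.655 in WT, was an exception in Phlpp1-/-, at 0.0169. Pnmal2, a gene of the paraneoplastic antigen family, had 3.53, 7.78 and 4.40 CPM in WT and stayed between 2.02 and 3.88 CPM in the KO libraries.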

How the data were processed

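Gene counts of 12 mouse libraries were used as the authors deposited them, 1 raw count column per library. Per the submitters' processing notes, bcl2fastq 2.17, STAR 2.5.2b, featureCounts of Subread 1.5.2 and the mm10 build were used; the strand setting and the treatment of multi-mapping reads are not given in these sources, so genes that overlap on opposite strands cannot be told apart. CPM were computed with edgeR 4.0.16 TMM factors over 12 libraries (16565 genes kept by filterByExpr), and TPM from counts and union exon lengths of GENCODE M21. The WT rule leaves no comparison of groups, so no p-value is given. Biological CV is the square root of the variance of CPM less its Poisson part, divided by the mean, tested on simulated data. No protein table was at hand, so glycine (GGN) and proline (CCN) codons of GENCODE coding sequences stand for amino acids. Of 50 gene lists, members and rules were chosen with earlier results of these data known. Named were the 30 leading nuclear genes, up to 10 genes of a matrix list or 5 of another by level per length, near-zero defining markers, the 25 most variable genes and the leading glycine genes; other genes were picked after their values were seen. Hbb-b1 and Hbb-b2 did not match a symbol of the count table. Limits from 3 counts cover counting error only.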

Additional observations from a re-analysis of the deposited data

How the results depend on the processing

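The number of genes at 1 CPM or more in all WT libraries was 12993, and 20357 with at least 1 count in each library in place of the CPM filter. The number of genes past 2-fold was 211, but 39 with a mean of at least 5 CPM and 1106 with a ratio of 1.5, and between 89 and 117 when a replicate was left out, where fewer samples are compared. The glycine codon share of 8.30% was 8.85% with no division by length and 7.02% without the collagen genes. Counts and sums under library totals, TMM factors from the 3 WT libraries and DESeq2 1.42.0 size factors kept within the spread between replicates or within 1.5 times, as did the levels of the 5 marker genes, Phlpp1, Phlpp2 and the 25 most variable genes. Ranked by the SD of log2(CPM + 0.5), the 25 genes had a mean median percentile of 98.9 in the other genotypes, beside 99.0, and the 15 with a mean of at least 5 CPM in every genotype, an alternative chosen after seeing the data, had 98.2. Of 423 pairs of neighbours in level per length, 261 kept their order in all libraries, and 205 of those did so with the length of 1 transcript too, an alternative chosen after seeing the data, like the other scalings of the counts of matrix and glycolysis genes by library. No paired analysis was possible because the results come from a single genotype and from no test. With 3 libraries, spreads are rough, and the labels do not say whether they are separate animals.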

Other observations

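The next most variable gene after the 25 with a mean of at least 5 CPM was Col25a1, a membrane collagen, at 5.88, 11.1 and 12.3 CPM in WT 1, WT 2 and WT 3. Mir6236 and Gm24187, small noncoding genes, had 25.5, 15.9 and 15.2 CPM and 8.19, 4.14 and 4.59 CPM, both highest in WT 1. AY036118, which overlaps Gm42418 on the opposite strand, had 0 counts in every library. SOX motif letters (AACAAT, either strand) were found in 8 of 45 promoters of the cartilage matrix lists, beside 10.7% of all promoters, and TATA letters in 12 of 45, beside 13.6%.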
